A study of Mus musculus with 4 samples.

Results

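Primitive endoderm genes were examined in single cells of 3 mouse cell lines. The 8 genes Gata6, Gata4, Sox17, Sox7, Foxa2, Dab2, Pdgfra, and Lama1 were taken by symbol from the 33565 genes of the count matrices, and each symbol matched a single row. The lines were profiled in a single CapSeq library, a split-pool method in which the first barcode (BC1) is given by the well of a plate and so records the line. N2a (Neuro-2a) is a mouse neuroblastoma line and NIH/3T3 a mouse embryonic fibroblast line, both grown in DMEM with serum. The mouse embryonic stem cells (mESCs) were of the E14TG2a line, grown on gelatin with serum, leukemia inhibitory factor, the GSK3 inhibitor CHIR99021, and the MEK inhibitor PD0325901. The cells kept had 1000 UMIs or more, of which no more than 20% were mitochondrial. They were 2323 N2a, 2037 NIH/3T3, and 2137 mESC cells, with median depths of 6185, 4863, and 4803 UMIs. BC1 is part of the barcode, so by design no barcode held UMIs in more than 1 line, and this does not measure mixing between lines. With a single library for each line, the lines were not tested against one another and the text holds no p-values. The 95% intervals are exact ones, Poisson for sums of UMIs and binomial for shares of cells, and they hold counting error alone.

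Primitive endoderm is an epithelium that separates from the pluripotent epiblast in the blastocyst and gives rise to the parietal and visceral endoderm of the yolk sac. Its fate depends on FGF signalling through MEK and ERK, which the epiblast precursors start by secreting FGF4, and it is marked by Gata6, followed by Sox17, Gata4, and Sox7. Embryonic stem cells represent the epiblast, and cultures without MEK inhibition are known to hold some cells that turn on primitive endoderm genes. The 8 genes also have uses elsewhere, so a UMI of any one of them does not by itself mark the lineage.

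The 8 genes together had 303 CPM in NIH/3T3 cells (293 to 313, 3542 UMIs), 72.1 in mESCs (67.4 to 76.97, 888 UMIs), and 33.5 in N2a (30.8 to 36.3, 601 UMIs), where CPM is the count of UMIs scaled to the same total in each line. A different gene carried the sum in each line. Gata4 gave 95.2% of the N2a sum (93.1 to 96.7), Dab2 gave 79.1% of the NIH/3T3 sum (77.7 to 80.4) with Pdgfra at 15.9% and Gata4 at 5.00%, and Lama1 gave 87.6% of the mESC sum (85.3 to 89.7). The genes differ in length, so the shares were also taken from UMIs per kilobase. Per kilobase of exon the shares were 97.3% for Gata4 in N2a, 76.8% for Dab2 in NIH/3T3, and 85.7% for Lama1 in mESCs. Per kilobase of the whole gene span they were 91.3%, 57.9%, and 71.3%, and Pdgfra then took 34.99% of the NIH/3T3 sum. The same gene led in each line on all of these scales. The 4 factors Gata6, Gata4, Sox17, and Sox7, which define the lineage most closely among the 8, summed to 31.97 CPM in N2a against 15.1 in NIH/3T3 and 4.06 in mESCs (3.01 to 5.35, 50 UMIs).

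**Figure D1:**
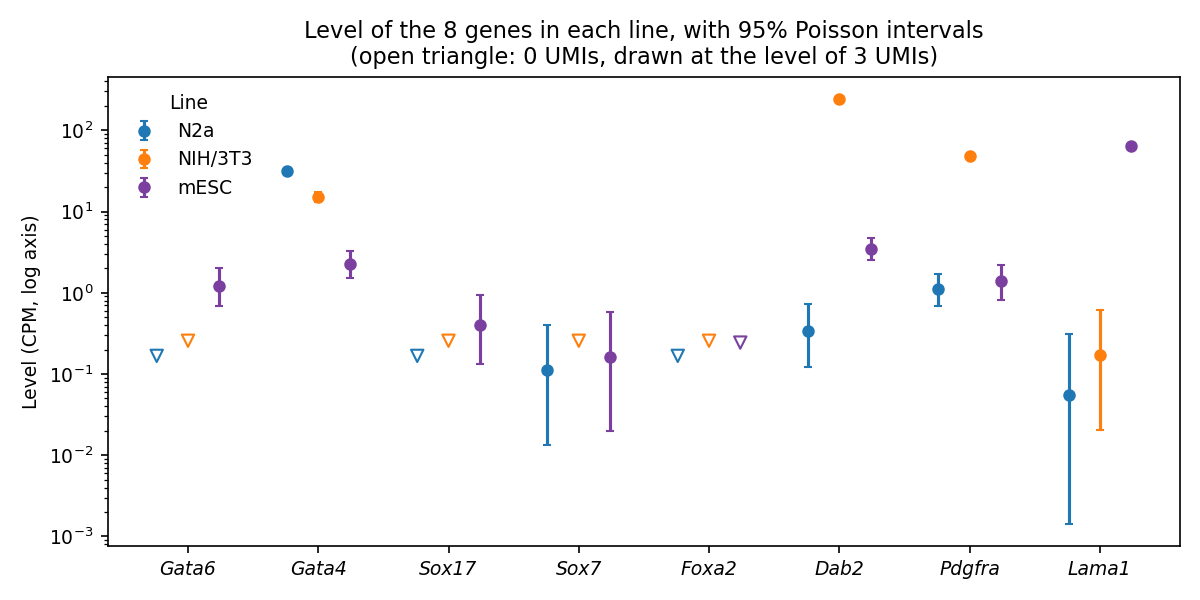
Level of each of the 8 genes in CPM (log axis) in N2a, NIH/3T3, and mESC cells, with 95% Poisson intervals and open triangles at the level of 3 UMIs where a line had none. Gata4 was highest in N2a at 31.9 CPM, Dab2 and Pdgfra were highest in NIH/3T3 at 239 and 48.1 CPM, and Lama1 was highest in mESCs at 63.1 CPM, while Foxa2 had no UMI in any line.

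Levels were set apart between lines by a rule of at least 2-fold on CPM + 1 with intervals that did not overlap, over genes with at least 10 UMIs in the pair of lines. By this rule 20.1% of all genes were higher in mESCs than in N2a, and so were 3 of the 5 members with enough UMIs, namely Gata6, Dab2, and Lama1. In the other direction the background was 19.1%, and Gata4 was the member past the rule. Against NIH/3T3, 24.3% of genes and 2 of 5 members (Gata6 and Lama1) were higher in mESCs, and 19.1% of genes and 3 of 5 members (Gata4, Dab2, and Pdgfra) were higher in NIH/3T3. Gata4 was higher in N2a than in NIH/3T3 on a background of 19.6%, and Dab2 and Pdgfra were higher in NIH/3T3 than in N2a on a background of 16.5%, out of 3 members with enough UMIs. The median difference of these members on the log2(CPM + 1) scale was 1.15 for mESCs over N2a and -2.30 for mESCs over NIH/3T3, where the medians over all genes were -0.02 and 0.09. With 5 members at most, these counts are a description of the single genes and not of the lineage.

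Markers of one line also had UMIs in the other lines, most at a low share of their own level. Whether these UMIs were carried over between lines or expressed there was not tested. The summed mESC markers (Pou5f1, Zfp42, Dppa5a, Nanog, Esrrb, and Tdgf1) had 0.262% of their mESC level in N2a and 0.359% in NIH/3T3. The NIH/3T3 markers (Col1a1, Col1a2, Cav1, Prrx1, Col3a1, and Twist1) had 0.411% of their own level in mESCs, from 0.130% for Prrx1 to 7.78% for Twist1, and 0.125% in N2a. Among the N2a markers, Hand2, Gm30835, Syt6, and Clvs1 had from 0.128% to 0.442% of their N2a level in mESCs and from 0.113% to 0.275% in NIH/3T3.

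Gata6, a zinc finger factor that acts at the head of the primitive endoderm programme, had UMIs in mESCs and in neither other line. It lies on chromosome 18 (GRCm39, 11051565 to 11086995, plus strand). It had 15 UMIs in 15 mESC cells, or 1.22 CPM (0.681 to 2.01) and 0.702% of cells (0.393 to 1.16). N2a and NIH/3T3 had 0 UMIs, which allows shares of cells with a captured UMI, though not of cells expressing the gene, of up to 0.129% and 0.147%. With 3 UMIs set in place of 0, the mESC level was 7.29 times that of N2a and 4.75 times that of NIH/3T3. These ratios leave out the counting error of the 15 mESC UMIs and so are not lower bounds. The 15 cells came from 10 of the 32 BC1 wells. The antisense gene Gata6os, which overlaps it, had 5 UMIs in mESCs, 4 in NIH/3T3, and 1 in N2a, and whether the counting used strand is not given in the sources used here.

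Gata4, the zinc finger factor that follows Gata6 in the lineage and also acts in heart and gonad, was measured in all 3 lines (chromosome 14, 63436362 to 63509141, minus strand). In N2a it had 572 UMIs at 31.9 CPM (29.3 to 34.6), and 438 of 2323 cells (18.9%, 17.3 to 20.5) held a UMI. NIH/3T3 had 177 UMIs at 15.1 CPM (13.0 to 17.5) in 8.00% of cells, and mESCs had 28 UMIs at 2.27 CPM (1.51 to 3.28) in 1.31% of cells. The order N2a, NIH/3T3, mESC held without overlap of the Poisson intervals, with N2a 2.11 times NIH/3T3 (1.78 to 2.51) and NIH/3T3 6.66 times mESCs (4.45 to 10.3). By well the order was less sharp. Over 32 wells the N2a median was 30.4 CPM (18.4 to 50.1), the NIH/3T3 median 13.8 CPM (3.23 to 27.3), and the mESC median 2.45 CPM (0 to 8.65), so the ranges of neighbouring lines overlapped. At 7.13% of the N2a level, Gata4 in mESCs stood above the 0.128% to 0.442% that Hand2, Gm30835, Syt6, and Clvs1 had there. Cells thinned to 1000 UMIs each held a Gata4 UMI in 3.44% of N2a cells, against 1.82% for NIH/3T3 and 0.234% for mESCs.

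Among the other GATA factors, Gata2, a factor of blood and neural cells, had 38.6 CPM in N2a against 4.19 in NIH/3T3 and 3.98 in mESCs, which is the same leading line as Gata4. Gata3, a trophectoderm factor, had 3.84, 0.427, and 8.44 CPM in the same order, and Gata5 had 2 UMIs in N2a and 0 in both others. The antisense gene Gm49390, which overlaps Gata4, had 1 UMI in N2a and 0 in the other lines. How the counting treated reads that both genes could share is not given in the sources used here.

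Sox17 and Sox7, HMG-box factors of the SOXF family that act in endoderm and in vessels, were near the limit of detection. Sox17 (chromosome 1, 4561151 to 4567784, minus strand) had 5 UMIs in 5 mESC cells, or 0.406 CPM (0.132 to 0.947), and 0 UMIs in N2a and NIH/3T3. The intervals of the zero counts reached 0.205 CPM in N2a and 0.315 CPM in NIH/3T3 and overlapped that of mESCs. Sox7 (chromosome 14, 64181006 to 64188352, plus strand) had 2 UMIs in mESCs, 2 in N2a, and 0 in NIH/3T3, and its levels in mESCs and N2a were 0.162 and 0.111 CPM, a ratio of 1.46 (0.106 to 20.1). The family's other gene, Sox18, had 4 UMIs in mESCs, 1 in N2a, and 0 in NIH/3T3. No difference between lines in Sox17 or Sox7 was detectable at this depth.

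Foxa2, a forkhead factor of visceral and definitive endoderm (chromosome 2, 147884797 to 147889005, minus strand), had 0 UMIs in every line. A count of 0 allows shares of cells with a captured UMI of up to 0.140% for mESCs, 0.147% for NIH/3T3, and 0.129% for N2a, and it sets no limit on the share of cells that express the gene below the reach of this depth. Its paralogs were low as well: Foxa1 had 1.78 CPM in N2a, 0.649 in mESCs, and 0 UMIs in NIH/3T3, and Foxa3 had 5 UMIs in mESCs and 2 in each other line.

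Dab2, an endocytic adaptor that sorts lipoprotein receptors in yolk sac endoderm, was the leading gene of NIH/3T3 (chromosome 15, 6329269 to 6470196, plus strand). It had 2800 UMIs at 239 CPM (231 to 248), and 1262 of 2037 NIH/3T3 cells (62.0%, 59.8 to 64.1) held a UMI. N2a had 6 UMIs at 0.334 CPM, and mESCs had 43 UMIs at 3.49 CPM (2.53 to 4.70) in 37 cells, or 1.73% (1.22 to 2.38). NIH/3T3 was thus 716 times N2a (329 to 1954) and 68.6 times mESCs (50.8 to 95.0). All 32 NIH/3T3 wells lay between 157 and 327 CPM (median 236), above the highest mESC well at 10.2 CPM and the highest N2a well at 2.29 CPM. At 1.46% of the NIH/3T3 level, Dab2 in mESCs stood above the 0.411% of the summed NIH/3T3 markers and within their range of 0.130% to 7.78%, and it was 10.4 times the N2a level (4.43 to 30.0). Its relative Dab1, a neuronal adaptor, was highest in mESCs instead, with 24.7 CPM there, 1.71 in NIH/3T3, and 1.11 in N2a. Both genes were lowest in N2a.

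Pdgfra, the receptor for PDGF ligands that marks primitive endoderm in the blastocyst and mesenchyme later, was the other NIH/3T3 gene (chromosome 5, 75311994 to 75358876, plus strand). It had 563 UMIs at 48.1 CPM (44.2 to 52.3) in 377 cells, or 18.5% (16.8 to 20.3). N2a had 20 UMIs at 1.11 CPM and mESCs 17 UMIs at 1.38 CPM, which did not differ beyond counting error (ratio 1.24, 0.609 to 2.49). The NIH/3T3 level was 34.9 times mESCs (21.6 to 60.3) and 43.2 times N2a (27.7 to 71.3). The NIH/3T3 wells ranged from 20.5 to 81.7 CPM (median 45.1), with no overlap with mESC wells (0 to 6.76) or N2a wells (0 to 5.49). Among its ligands, Pdgfa had 128 CPM in NIH/3T3, 83.0 in mESCs, and 13.9 in N2a, and Pdgfc had 87.0, 68.7, and 1.34 CPM. In mESCs the ligand genes were thus measured with 1023 UMIs for Pdgfa and 846 for Pdgfc, beside 17 UMIs for the receptor.

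Both of these genes are known targets of GATA factors in endoderm or mesoderm, so their promoter windows are shown. The windows run from 250 bases before to 50 after a RefSeq transcript start, come from a table on GRCm38.p6, and each matched GRCm39 at a single place of its chromosome, on the plus strand. The capitals mark the GATA motif, the letters GATA with A or T before them and A or G after them, searched on both strands. The window at the upstream Dab2 start (chr15:6329020-6329319) holds 2 motifs, beginning 179 bases before and 15 bases after the start, while the downstream Dab2 window (chr15:6415979-6416278) and the Pdgfra window (chr5:75312662-75312961) hold 0.
Dab2, upstream start: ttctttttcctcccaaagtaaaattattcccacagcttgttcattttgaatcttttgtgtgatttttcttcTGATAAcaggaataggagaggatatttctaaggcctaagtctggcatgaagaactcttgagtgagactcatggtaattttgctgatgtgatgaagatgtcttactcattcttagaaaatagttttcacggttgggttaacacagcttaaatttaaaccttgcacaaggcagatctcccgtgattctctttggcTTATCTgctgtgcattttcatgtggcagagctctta
Dab2, downstream start: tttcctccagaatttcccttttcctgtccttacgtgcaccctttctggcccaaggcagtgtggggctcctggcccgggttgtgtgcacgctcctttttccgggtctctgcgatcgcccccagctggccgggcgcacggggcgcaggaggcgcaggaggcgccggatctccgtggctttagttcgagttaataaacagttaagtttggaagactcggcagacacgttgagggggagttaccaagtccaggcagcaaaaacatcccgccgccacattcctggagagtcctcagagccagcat
Pdgfra: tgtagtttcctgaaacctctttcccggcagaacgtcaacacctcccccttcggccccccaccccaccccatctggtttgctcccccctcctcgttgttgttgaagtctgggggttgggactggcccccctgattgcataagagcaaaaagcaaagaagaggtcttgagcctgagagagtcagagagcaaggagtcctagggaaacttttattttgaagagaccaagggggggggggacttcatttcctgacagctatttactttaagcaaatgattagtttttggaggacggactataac
Of the 32851 promoters of the table, 29.8% hold the motif at least once, so a match in a window is common. The table matched 3 of the 8 members, and Foxa2, with 3 windows, had 1 motif in one of them, 183 bases before the start. Gata6, Gata4, Sox17, Sox7, and Lama1 were not matched.

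Lama1, the alpha chain of the laminin that primitive endoderm and parietal endoderm lay down as basement membrane, was the leading gene of mESCs (chromosome 17, 68004223 to 68129642, plus strand). It had 778 UMIs at 63.1 CPM (58.8 to 67.7), and 526 of 2137 cells (24.6%, 22.8 to 26.5) held a UMI. N2a had 1 UMI and NIH/3T3 2 UMIs, at 0.0557 and 0.171 CPM. The mESC level was 369 times NIH/3T3 (102 to 3055), and every mESC well, from 36.6 to 89.6 CPM with a median of 63.2, lay above every N2a and NIH/3T3 well, of which the highest had 3.23 CPM. Lama1 in NIH/3T3 and N2a was 0.271% and 0.0882% of the mESC level, at or below the 0.359% and 0.262% of the summed mESC markers in those lines. Thinned to 1000 UMIs, 5.85% of mESC cells held a Lama1 UMI.

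**Figure D2:**
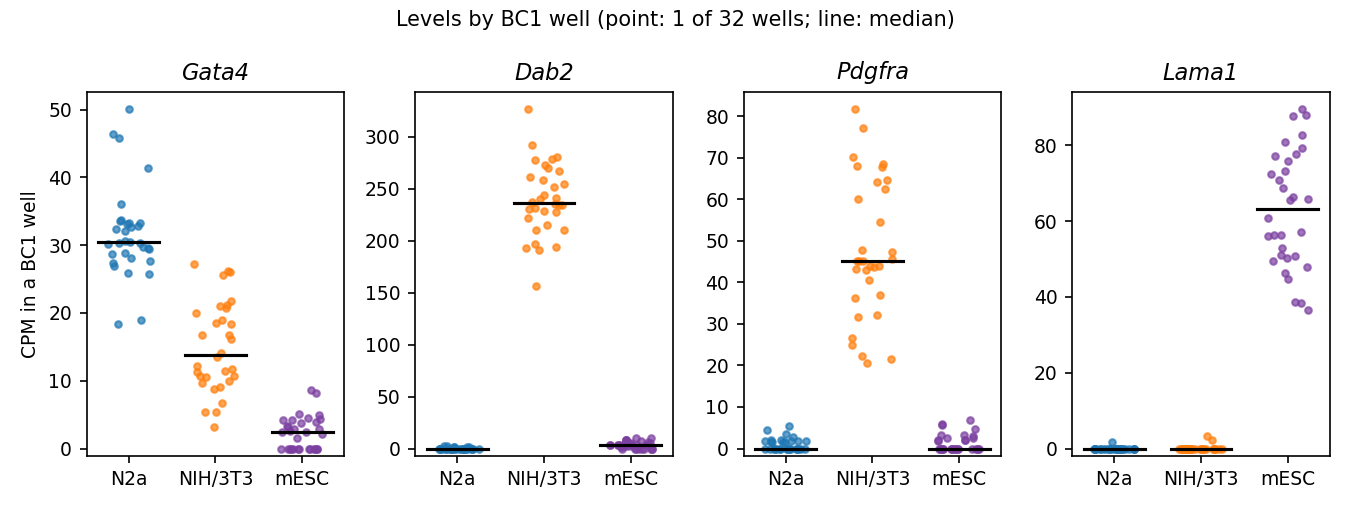
Level (CPM) of Gata4, Dab2, Pdgfra, and Lama1 in each of the 32 BC1 wells of each line (points) with the median (line); wells are parts of 1 culture and 1 library, not replicates. Dab2, Pdgfra, and Lama1 wells of the leading line did not overlap those of the other lines, whereas the Gata4 wells of N2a (18.4 to 50.1) and NIH/3T3 (3.23 to 27.3) did.

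A laminin is built from an alpha, a beta, and a gamma chain, and the other chains differed in how they were ordered over the lines. The gamma chain Lamc1 had 348 CPM in mESCs, 247 in NIH/3T3, and 175 in N2a, and the beta chain Lamb1 had 19.6 CPM in mESCs and 248 in NIH/3T3 but 3 UMIs in N2a. Among the alpha chains, Lama5 had 38.2 CPM in mESCs, 1.88 in NIH/3T3, and 2.73 in N2a, Lama3 had 11.8, 0.513, and 0.0557, and Lama4 had 4.54, 0.0855, and 31.5. Of the 10 laminin genes with enough UMIs, Lama1 included, 6 were higher in mESCs than in N2a (background 20.1%) and 1 was lower (19.1%). Against NIH/3T3, 5 of 11 were higher in mESCs (24.3%) and 2 were lower (19.1%). Nidogens, which link laminin to collagen IV, were also higher in mESCs, with Nid1 at 224 CPM (56.1 in NIH/3T3 and 1.84 in N2a) and Nid2 at 195 CPM against 5 UMIs in N2a and 1 in NIH/3T3.

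The further genes of the lineage gave no shared direction. In a list of 35 extraembryonic endoderm genes, 11 of the 25 with enough UMIs were higher in mESCs than in N2a (background 20.1%) and 5 were lower (19.1%). Against NIH/3T3, 9 of 24 were higher in mESCs (24.3%) and 10 were lower (19.1%). Its most abundant genes in mESCs were the matrix genes Lamc1, Nid1, and Sparc, of which Sparc had 219 CPM in mESCs, 799 in NIH/3T3, and 155 in N2a. Lrp2, the megalin receptor whose endocytosis Dab2 serves, had 61.1 CPM in mESCs (56.8 to 65.6) against 0.342 in NIH/3T3 and 0.334 in N2a, while its partner Cubn had 9 UMIs in mESCs and 13.4 CPM in NIH/3T3. The later endoderm factor Hnf4a had 3 UMIs in mESCs, and Cer1 had 0 UMIs in all 3 lines.

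The other lists place the mESCs. All 14 naive pluripotency genes with enough UMIs were higher in mESCs than in N2a (background 20.1%), and 13 were higher than in NIH/3T3 (24.3%). They were led by Dppa5a (1821 CPM), Zfp42 (1318), and Tfcp2l1 (713). Sox2 had 0 UMIs in all 3 lines. Without the feature mode and strand setting of the counting, the 0 for Sox2 cannot be read as absence of its transcript. In FGF and ERK signalling, 3 of 19 genes were higher in mESCs than in N2a (background 20.1%) and 6 lower (19.1%). Against NIH/3T3, 4 of the 19 were higher in mESCs (24.3%) and 4 lower (19.1%). Fgf4, the ligand, had 160.3 CPM in mESCs and under 1 CPM in the other lines, and the receptor Fgfr2 had 234 CPM in mESCs, 99.9 in NIH/3T3, and 81.5 in N2a. Genes that ERK activity induces differed in direction: Dusp6 had 9.50 CPM in mESCs, 85.2 in NIH/3T3, and 48.2 in N2a, and Egr1 had 6.09, 30.9, and 202, whereas Etv5 had 321, 53.2, and 92.3. Of the mesendoderm genes, Gsc, Eomes, and Fgf8 had 9.41, 5.76, and 1.22 CPM in mESCs, and of the trophectoderm genes Tfap2c, Tead4, and Krt8 had 69.6, 54.6, and 9.17 CPM.

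Co-occurrence of the 8 genes in single mESC cells was rare. Of 2137 cells, 1535 (71.8%) held no UMI of the 8 genes, 576 (27.0%) held UMIs of 1 gene, 25 of 2 genes, and 1 of 3 genes. The share with 2 or more was 1.22% (0.796 to 1.78, 26 cells), beside 0.301% of N2a cells (7 cells) and 17.6% of NIH/3T3 cells (359 cells). No mESC cell held UMIs of 2 or more of Gata6, Gata4, Sox17, and Sox7, which allows a share of up to 0.140%, and 50 cells (2.34%, 1.74 to 3.07) held a UMI of 1 of them. At this depth the 4 factors were seen singly, and Gata6 and Gata4 UMIs were met in 0.702% and 1.31% of cells, so joint expression at these levels could pass unseen.

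Of the 28 pairs of genes, 8 were seen in at least 1 mESC cell, and 6 of those 8 included Lama1. Lama1 was in 24 of the 26 cells, with Dab2 in 9, Gata4 in 7, Gata6 in 3, Pdgfra in 3, Sox17 in 2, and Sox7 in 1. The presence of the other gene did not move the Lama1 share beyond its interval. Lama1 was in 25% of cells with Gata4 (10.7 to 44.9) against 24.6% without, and in 24.3% of cells with Dab2 against 24.6% without. Gata6 and Dab2 formed the other repeated pair. Dab2 was in 2 of the 15 Gata6 cells (13.3%, 1.66 to 40.5) and in 1.65% of the cells without Gata6 (1.15 to 2.29). These intervals overlapped, and both cells carried the same BC1 sequence. The cell with 3 genes held 1 UMI of Sox17, 2 of Dab2, and 1 of Lama1 among its 12669 UMIs.

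**Figure D3:**
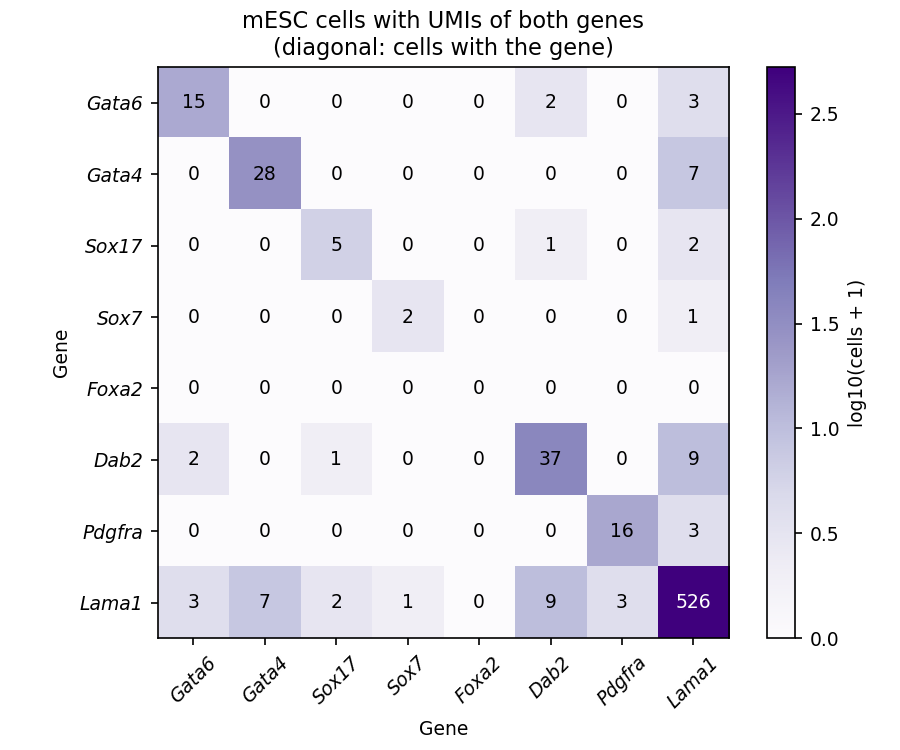
Number of mESC cells with at least 1 UMI of both genes, for each pair of the 8 genes (rows and columns), with the cells that hold the gene on the diagonal; the shade is log10(cells + 1). Lama1 is in 526 cells and shares cells with each of the other genes but Foxa2, and the 6 pairs among Gata6, Gata4, Sox17, and Sox7 are all at 0.

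The cells with more of the genes were the deeper ones. Divided into tertiles by UMIs, 0 of 713 mESC cells in the lowest, 8 of 712 in the middle (1.12%), and 18 of 712 in the highest (2.53%) held 2 or more of the genes. The 26 cells had a median of 7994 UMIs against 4785 in the other mESC cells. Thinned to 1000 UMIs, 0 mESC cells held 2 or more, which allows up to 0.140%, while 24 NIH/3T3 cells (1.18%) still did. The 26 cells came from 19 wells, with 3 at most from one, and each held at least 10 UMIs of the mESC markers. Together they held 2 UMIs of NIH/3T3 markers and 2 of N2a markers.

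The 26 cells were then compared with the other 2111 mESC cells in genes that did not choose them. Over all genes, 2.03% had intervals above and 1.25% had intervals below those of the other cells, and 1.76% and 1.05% did so within the upper tertile by depth. Of the 35 extraembryonic endoderm genes, 18 had enough UMIs, and 2 were higher in the 26 cells and none lower. Lrp2 had 100.1 CPM (66.0 to 146) against 60.2 (55.9 to 64.8), and the homeobox gene Rhox5 had 37.1 CPM (17.8 to 68.2) against 14.1 (12.1 to 16.4). In the upper tertile by depth on both sides Lrp2 had 104 CPM (66.4 to 154) against 62.1 (56.4 to 68.2), where the intervals touched, and Rhox5 had 43.2 against 11.4. The matrix genes that would accompany Lama1 in endoderm did not stand apart: Lamc1 had 323 CPM against 348, Lamb1 11.1 against 19.8, Nid1 163 against 225, and Sparc 182 against 219, all with overlapping intervals.

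Pluripotency genes were present in the same 26 cells. Nanog had 501 CPM (420 to 593) against 573, Dppa5a had 1917 against 1819, and Esrrb had 375 against 356, with overlapping intervals. Zfp42, a marker of naive cells, was lower at 960.4 CPM (847 to 1085) against 1326 (1305 to 1347). Zscan4c, a gene of the 2-cell-like state whose count is uncertain because it has near-identical copies, had 0 UMIs in the 26 cells and 16.3 CPM in the others. The genes with the largest ratio of CPM + 10 in the 26 cells were Apobec2, Grin2a, Lpl, Rgma, Dppa3, Ube2j1, Reck, Baiap2l1, Slc25a25, and Stra8, from 44.5 against 8.96 CPM for Apobec2 to 182 against 76.1 CPM for Stra8. They were picked as the largest of 15143 genes and carry no test, and none of them is in the lists of lineage genes.

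The 50 mESC cells with a UMI of Gata6, Gata4, Sox17, or Sox7 were compared with the other 2087 in the same way, with 1.73% of genes above and 1.08% below. None of the 18 extraembryonic endoderm genes with enough UMIs stood apart. Of 14 naive pluripotency genes, 3 were lower. Zfp42 had 1129 CPM (1030 to 1234) against 1325, Esrrb 266 (219 to 319) against 359.9, and Prdm14 13.99 (5.13 to 30.5) against 34.6. Pdgfa, a ligand of Pdgfra, was higher at 121 CPM (90.6 to 159) against 81.6 (76.6 to 86.9). Nanog, which is opposed to Gata6 in the blastocyst, had 548 CPM (480.2 to 623) against 573 (559 to 586). Grouping by 1 UMI takes deeper cells, and the 50 cells had a median of 7202 UMIs against 4773.

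For the 4 genes that carried a line, the UMIs per cell were set beside a Poisson distribution with the same mean CPM at each cell's depth. Lama1 in mESCs was in 526 cells where the Poisson count was 610.1, and 55 cells held 3 or more UMIs where it was 27.0. Pdgfra in NIH/3T3 was further from it, with 377 cells against 467 and 42 cells with 3 or more against 12.6. Gata4 in N2a had 438 cells against 477 and 21 cells with 3 or more against 12.5. Dab2 in NIH/3T3 was closest for the high cells, with 378 cells with 3 or more against 375, and 1262 cells with a UMI against 1345. Cells with 3 or more UMIs held 57.0% of the Dab2, 28.1% of the Pdgfra, 25.1% of the Lama1, and 13.5% of the Gata4 UMIs. These cells were next described by their other genes, as groups chosen after the counts were seen.

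**Figure D4:**
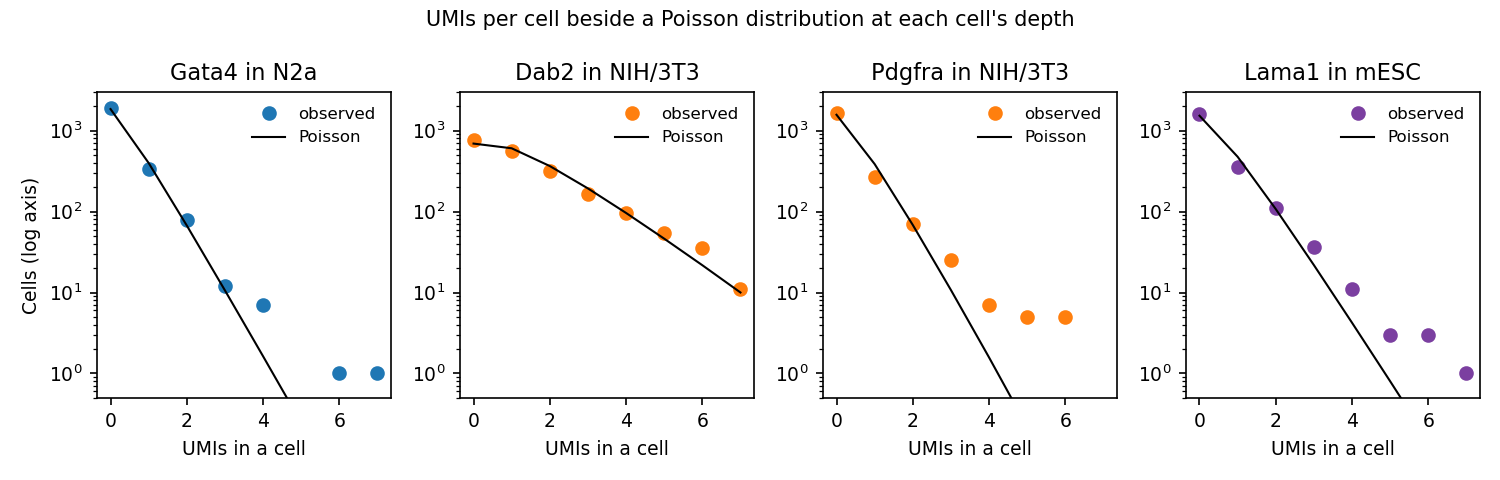
Cells (log axis) by the number of UMIs they held, up to 7, of Gata4 in N2a, Dab2 and Pdgfra in NIH/3T3, and Lama1 in mESCs (points), with the Poisson count at each cell's depth (line). Points lie above the line from 3 to 6 UMIs for Pdgfra and from 3 to 7 UMIs for Lama1, where 42 and 55 cells held 3 or more against 12.6 and 27.0.

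The 55 mESC cells with 3 or more Lama1 UMIs, set against the 1611 with 0, held more of 3 of the 14 naive pluripotency genes with enough UMIs and less of none, with 1.42% of all genes above and 1.40% below. The others of the list did not stand apart. Klf5 had 411 CPM (360.3 to 467) against 306 (294 to 318), Klf4 had 288 (246 to 335) against 216 (206 to 226), and Tfcp2l1 had 806 (735 to 883) against 696 (678 to 715). Ptpn11, the SHP2 phosphatase of FGF signalling, had 88.4 CPM against 60.1. Klf4, Klf5, Tfcp2l1, and Ptpn11 stood apart in the upper tertile by depth as well, where 1.07% of genes were above and 0.936% below. None of the 18 extraembryonic endoderm genes stood apart, with Lrp2 at 46.8 CPM against 61.3 and Lamc1 at 343 against 333. Of the members, Dab2 and Pdgfra had 0 UMIs and Gata6 and Gata4 had 1 UMI each in these cells.

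In N2a, the 21 cells with 3 or more Gata4 UMIs had 92.2 CPM of Gata2 (63.1 to 130.2) against 34.9 (31.8 to 38.3) in the 1885 cells with 0, where 3.46% of genes were above and 2.22% below. The ERK phosphatase Dusp4 had 202 CPM (157 to 255) against 89.8 (84.8 to 95.1). Within the upper tertile by depth, where 3.17% of genes were above and 2.17% below, Gata2 had 80.0 CPM (52.7 to 116) against 34.95 (30.8 to 39.5). Of the extraembryonic endoderm genes, 17 had enough UMIs, and 4 were higher (Cubn, Col4a1, Col4a2, and Dkk1) and Rhox5 lower. The first 3 of these had 4 UMIs each in the 21 cells. In the upper tertile by depth 1 of 15 was higher and 1 lower, with Dkk1 at 228 CPM (180.1 to 285) against 151 (142 to 160.3) and Rhox5 at 326 (268 to 393) against 419 (404 to 434). Of 18 FGF and ERK genes, 3 were higher (Dusp4, Etv4, and Etv5), and 2 of 17 in the upper tertile. Pdgfra had 0 UMIs in the 21 cells. These cells had a median of 15076 UMIs against 5560, and they hold 77 Gata4 UMIs in all.

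In NIH/3T3, Pdgfra was in 19.8% of the cells with Dab2 and in 16.4% of those without. The cells with Dab2 were deeper, with a median of 5915.5 UMIs against 3330. Thinned to 1000 UMIs, the shares were 3.74% (2.15 to 6.00) and 4.10% (3.19 to 5.19), with overlapping intervals. By level, the 378 cells with 3 or more Dab2 UMIs had 39.3 CPM of Pdgfra (33.0 to 46.5) against 53.9 (46.1 to 62.6) in the 775 with 0. In those 378 cells Dusp6 had 103 CPM (93.0 to 115) against 65.0 (56.4 to 74.5) and Pdgfa had 142 (129 to 155) against 109 (97.5 to 121), while Nid1 had 47.1 (40.1 to 54.9) against 70.4 (61.4 to 80.3), with 2.81% of all genes above and 2.49% below. Of 14 extraembryonic endoderm genes, Sparc was higher, at 831 CPM against 759, and Nid1 was the lower one. Within the upper tertile by depth (3.45% of all genes above and 3.37% below), 3 of 14 were higher and 2 lower. Those Pdgfra intervals met over all cells, but in this tertile the Pdgfra level was 39.6 CPM (32.7 to 47.4) against 70.4 (55.8 to 87.8). Seen from the receptor, the 42 cells with 3 or more Pdgfra UMIs had 174 CPM of Dab2 (138 to 216) against 253 (243 to 264) in the 1660 with 0. Here the background was wider, at 8.99% of genes above and 6.5% below, and 8.14% and 6.01% in the upper tertile, where Dab2 had 177 CPM (140 to 222) against 259 (245 to 275).

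In the 42 Pdgfra-high cells, 4 of 15 extraembryonic endoderm genes were higher (Nid1, Afp, P4ha2, and Rhox5) and 1 was lower (Sparc). Of 17 FGF and ERK genes, 4 were higher (Fgfr1, Sos1, Dusp4, and Etv5) and 2 were lower (Map2k1 and Mapk3). Over all genes, 8.99% were above and 6.5% below. The 42 cells were deeper, with a median of 11367 UMIs against 4510 in the cells without Pdgfra. In the upper tertile by depth, 8.14% of all genes were above and 6.01% below. There, 3 of 14 extraembryonic endoderm genes were higher and 1 lower, and 4 of 17 FGF and ERK genes were higher and 2 lower. Nid1 had 129 CPM (98.98 to 166) against 39.5 (35.4 to 43.9), Dusp4 had 70.0 (48.2 to 98.3) against 14.8 (12.4 to 17.6), and Sparc had 471 (411 to 537) against 866 (847 to 886). Pdgfrb, the other PDGF receptor, had 0 UMIs in the 42 cells and 25.7 CPM (22.4 to 29.3) in the cells without Pdgfra. None of the 6 laminin genes with enough UMIs stood apart, with Lamb1 at 227 CPM against 246 and Lamc1 at 267 against 245.

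In part of the NIH/3T3 cells 7 neighbouring genes of chromosome 14 have few UMIs, namely Abcc4, Dnajc3, Dzip1, Gpc6, Gpr180, Tgds, and Uggt2. These genes were chosen from the same cells, and neither Pdgfra nor Gata4 lies among them, although Gata4 is on the same chromosome. The 42 Pdgfra-high cells held 1 UMI of the 7 genes (2.12 CPM) against 1750 UMIs (199.8 CPM) in the cells without Pdgfra. Of the 42, 41 (97.6%, 87.4 to 99.9) held none, beside 49.0% of the cells without Pdgfra. Among cells of the upper tertile by depth the shares were 97.1% of 34 cells (84.7 to 99.9) and 30.0% of 474 cells (25.9 to 34.3). The 34 cells came from 18 wells.

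Split the other way, by UMIs of the 7 genes in the same upper tertile, Pdgfra had 95.4 CPM (84.5 to 107) in the 287 cells with 0, 21.3 CPM (13.5 to 31.99) in the 113 with 1, and 16.3 CPM (12.0 to 21.7) in the 279 with 2 or more. A Pdgfra UMI was in 50.5% of the first cells and in 14.7% of the last. Dab2 ran the opposite way, at 179 CPM (164 to 195), 266 (236 to 299), and 279 (260.0 to 299). Gata4 had 9.75 CPM (6.48 to 14.1), 16.7 (9.89 to 26.4), and 16.0 (11.7 to 21.3), with overlapping intervals. Nid1 followed Pdgfra, at 105 CPM in the cells with 0 and 25.3 in those with 2 or more, and Pdgfrb followed Dab2, at 9.06 and 35.4 CPM. Lamb1 was level, at 245 and 249.4 CPM. Why these genes vary together among NIH/3T3 cells was not tested.

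**Figure D5:**
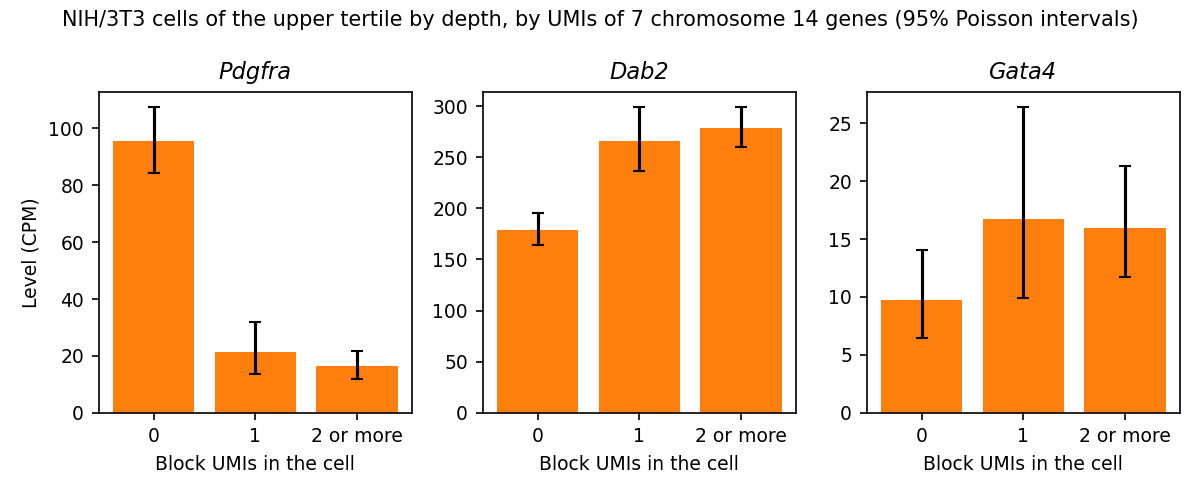
Level (CPM, bars with 95% Poisson intervals) of Pdgfra, Dab2, and Gata4 in NIH/3T3 cells of the upper tertile by depth, split by the UMIs they held of 7 chromosome 14 genes: 0 (287 cells), 1 (113 cells), or 2 or more (279 cells). From cells with 0 to cells with 2 or more, Pdgfra had 95.4 and 16.3 CPM, Dab2 had 179 and 279 CPM, and the Gata4 intervals overlapped.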

How the data were processed

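Single-cell RNA of N2a, NIH/3T3, and mESC cells was measured in 1 CapSeq library. Reads were split by BC1, trimmed, and aligned with STARsolo to GRCm39 with GENCODE M30. The authors deposited raw counts of UMIs for each gene and barcode, neither filtered for cells nor normalized. The STARsolo feature mode and strand setting are not given in the sources used here. The pooled matrix of the same reads was used as an alternative.

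The 6497 barcodes kept had 1000 UMIs or more and a mitochondrial share of 20% or less. Doublets were not called. UMIs were summed per line or cell group and given as CPM. A gene was compared between lines with at least 10 UMIs in the pair, by a 2-fold rule on CPM + 1 and exact Poisson intervals that do not overlap, and between cell groups by the intervals. A count of 0 was taken to allow 3 counts. Sox7 at 2 UMIs shows the limit this depth sets. Positions and lengths came from GENCODE M39, and promoters from RefSeq.

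The genes named were the 8 members, the 3 genes per list with the most UMIs in mESCs, list genes that stood apart in the chosen mESC cells, and the 10 genes most raised in those cells; others were named after their values were seen. A few genes of these lists are not reported here. The chosen cells were to hold 2 of the 4 factors, then 3 members, and, since under 10 cells did, at least 2 members. The members, lists, and cell groups were chosen with earlier results of these data known. The steps were tested on simulated data. The tools were numpy 2.4.6, pandas 2.3.3, scipy 1.17.1, and matplotlib 3.10.9 in Python 3.11.15.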

Additional observations from a re-analysis of the deposited data

How the results depend on the processing

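The levels of the 8 genes and the summed levels moved by less than their counting intervals with STARsolo cell calling, a minimum of 2000 UMIs, a maximum of 10% mitochondrial UMIs, without the top 5% of cells by UMIs, and with counts from the pooled matrix or from all barcodes. The share of mESC cells with 2 or more members fell to 0% after thinning to 1000 UMIs. The shares of the sum changed per kilobase: Gata4 in N2a had 91.3% by span and 97.3% by exon, Dab2 in NIH/3T3 57.9% and 76.8%, Pdgfra in NIH/3T3 34.99% and 13.8%, and Lama1 in mESCs 71.3% by span. The comparison within the upper tertile by depth was added after seeing the data, and there the Lrp2 ratio of 1.67 no longer had intervals apart. No paired analysis was possible because each line had 1 library. Depth limits the report most for Gata6, Sox17, Sox7, and Foxa2, which had 15, 5, 2, and 0 UMIs in mESCs.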
